A study of Mus musculus with 2 samples.

Results

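Type 2 conventional dendritic cells were examined in the spleens of wild-type (WT) mice that had been given 10000 iRBCs into the peritoneum, an abbreviation the labels leave unexplained, and were then treated with Vehicle or with Glutoborin on days 2 and 4 and killed on day 5. CD45+ leukocytes were sorted from the spleens and sequenced as 3' droplet single-cell libraries, 1 for Vehicle and 1 for Glutoborin. Both groups therefore share the injection, and the difference between them is the treatment, a compound the labels do not describe further. How many mice each library holds, and their age and sex, are not given in the sources used here. With 1 library a group, treatment, animals and library preparation cannot be told apart, and no test between the groups is possible.

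The cells were found barcode by barcode from their counts of RNA molecules (UMIs, unique molecular identifiers). A barcode that had 300 or more genes and 500 or more UMIs, with mitochondrial UMIs below 10%, was a member if it had at most 2 UMIs of the B cell gene Cd79a and none of the T cell gene Cd3e. It also needed at least 20 UMIs of the class II chains H2-Aa and H2-Ab1 together and none of Xcr1 (type 1 dendritic cells), Siglech (plasmacytoid dendritic cells), Fscn1 or Ccr7 (mature dendritic cells). Finally, at least 2 of the 8 genes Clec10a, Cd209a, Mgl2, Clec4a4, Ffar2, Zbtb46, Flt3 and Itgax had to be detected. This gave 107 members among 15941 kept cells, 39 of 6688 in Vehicle and 68 of 9253 in Glutoborin. The members were thus chosen by the measured UMIs of these 16 genes, so those values are given as a description. These genes are left out of the counts and medians of the gene lists below, but not of the counts over all measured genes.

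Conventional dendritic cells take up antigen in tissues and present it to T cells on class II and class I molecules. The type 2 kind carries Sirpa and CD11b and is best known for priming CD4 T cells, whereas the type 1 kind carries Xcr1 and is known for cross-presentation to CD8 T cells. In the mouse spleen a Notch2-dependent kind with Esam, Cd4 and Clec4a4 (DCIR2) sits at the bridging channels of the marginal zone, and a second kind with Clec10a, Cd209a and monocyte-like genes such as Csf1r, Ccr2 and Lyz2 is more like the cells called DC2B. Type I interferons are made early in infection and switch on a large antiviral programme in nearly every cell type.

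The Vehicle library held 8204 barcodes with 48526451 UMIs and the Glutoborin library 9646 with 56862506. The members contributed 392413 UMIs in Vehicle and 622765 in Glutoborin. Their depth was similar in both libraries: the lowest, median and highest cell had 2221, 10124 and 22041 UMIs in Vehicle and 1261, 9532 and 19219 in Glutoborin. The median member had 2982 detected genes and 2.46% mitochondrial UMIs in Vehicle, and 2809 genes and 2.42% in Glutoborin. The libraries share 24 barcode sequences, 21 of them among kept cells and 0 among the members. Scrublet, run on each library, called 1 Vehicle member and 0 Glutoborin members as doublets.

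Members made up 0.583% of the kept Vehicle cells (exact 95% binomial interval 0.415 to 0.796%) and 0.735% of the kept Glutoborin cells (0.571 to 0.931%). The log2 ratio of these shares, Glutoborin over Vehicle, was 0.33, and its exact interval (-0.26 to 0.94) includes 0. These and all intervals below cover counting error only and say nothing of the spread between mice. The threshold of 2 detected genes had more cells close to it in Glutoborin: 19 of 68 members there, against 5 of 39 in Vehicle, had exactly 2 of the 8 genes. Just outside, 18 Glutoborin and 7 Vehicle barcodes met every other condition with 1 of the 8 genes. Counting members from 3 of the 8 genes gave 34 Vehicle and 49 Glutoborin cells, with a log2 ratio of shares of 0.06. At the other edges, 1 Vehicle and 2 Glutoborin members had 20 to 29 class II UMIs, and 7 Vehicle and 3 Glutoborin members had 2 UMIs of Cd79a.

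The genes that name the cell type were present and almost absent from B cells, the most abundant cells of both libraries and a measure of free RNA. Itgax, which encodes CD11c, had a UMI in 29 of 39 members from Vehicle (74.4%, 57.9 to 87.0%) and 57 of 68 from Glutoborin (83.8%, 72.9 to 91.6%), against 1.30% and 1.01% of B cells. Flt3, the receptor for the growth factor that maintains dendritic cells, was detected in 24 (61.5%) and 40 (58.8%) members, against 1.44% and 1.53% of B cells. Zbtb46, a transcription factor of conventional dendritic cells, was detected in 24 (61.5%) and 29 (42.6%), against 0.260% and 0.252% of B cells. The median depths behind these shares were 10124 and 9532 UMIs for members and 4792.5 and 4137.5 for B cells.

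The lectins that separate type 2 cells were each found in a minority of members. Cd209a, a C-type lectin, was detected in 12 Vehicle and 20 Glutoborin members, with 206 CPM (UMIs per 1000000 UMIs of the members) in both libraries. Clec10a, a galactose-binding lectin, was detected in 7 and 13 members, and Clec4a4, an inhibitory lectin, in 5 and 11. Mgl2, a close relative of Clec10a, had a UMI in 1 Vehicle member and 0 of 68 Glutoborin members, which allows a share of up to 4.41%. Such limits are on cells with a UMI, not on cells that express the gene. Clec10a and Mgl2 are near-identical neighbours whose reads may be shared, so the level of each is uncertain. Of the 5 genes that define the label (Clec10a, Cd209a, Clec4a4, Zbtb46 and Flt3), 24 Vehicle and 37 Glutoborin members had UMIs of at least 2, and 2 and 6 had none.

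Genes that the rule did not use were also checked. Sirpa, the inhibitory receptor that marks type 2 cells, had a UMI in 20 of 39 members from Vehicle (51.3%, 34.8 to 67.6%) and 48 of 68 from Glutoborin (70.6%, 58.3 to 81.0%), against 2.31% and 2.04% of B cells. Kit, the stem cell factor receptor, was detected in 21 (53.8%) and 36 (52.9%) members and in 0.490% and 0.369% of B cells. Cd4 was detected in 7 and 25 members and Esam, an adhesion molecule, in 5 and 10. Defining genes of other cells were absent or sparse: the plasmacytoid gene Cox6a2 was at 0 in all 107 members, which allows a share of up to 2.80%, and Cadm1 (type 1 cells) was detected in 0 and 2 members. Clec9a, a dead-cell receptor usually taken as a type 1 marker, was detected in 7 Vehicle and 9 Glutoborin members. Markers of monocytes and macrophages were not low in every member and are described below.

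**Figure D1:**
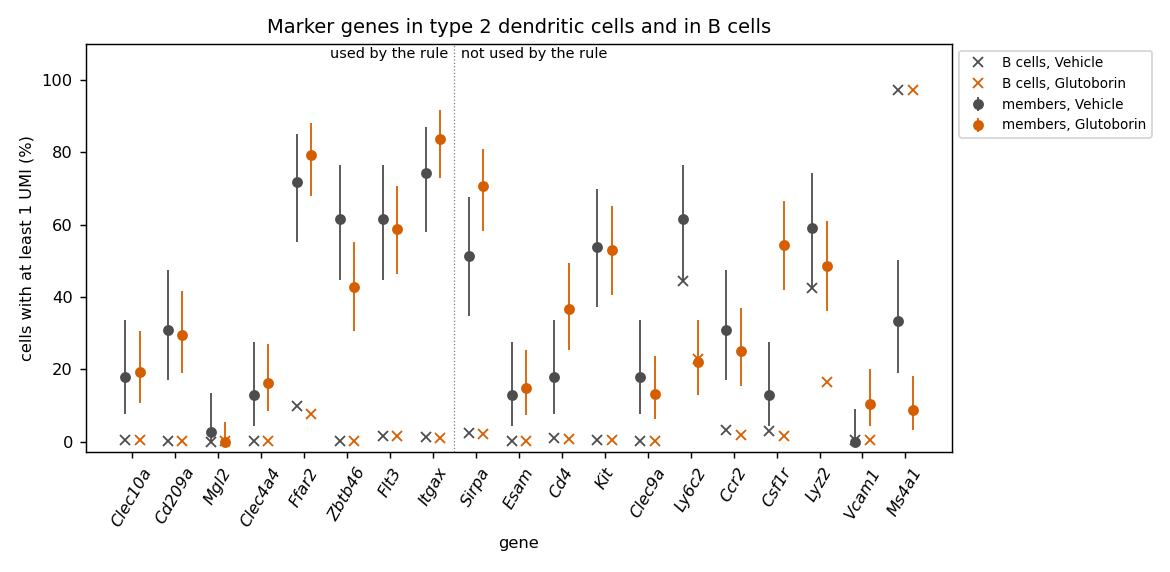
Share of cells with at least 1 UMI (vertical axis, %) of each gene (horizontal axis) in type 2 dendritic cells (circles with exact 95% binomial intervals, 39 Vehicle and 68 Glutoborin cells) and in B cells (crosses). Genes left of the dotted line chose the cells. Itgax, Flt3, Zbtb46, Sirpa and Kit lie far above the B cell shares in both libraries, Csf1r is at 12.8% in Vehicle and 54.4% in Glutoborin, and Ly6c2 and Lyz2 are also detected in many B cells.

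The genes that most set these cells apart from all other kept cells were ranked by the lower of the libraries' CPM ratios, among genes at 100 or more CPM in both. Ppp1r14a, an inhibitor of myosin phosphatase, led the ranking with 214 CPM in Vehicle and 302 in Glutoborin members, against 2.91 and 4.04 CPM in the other cells. Rtn1, an endoplasmic reticulum protein, followed with 153 and 130 CPM, at least 63.0 times the other cells. Bex6 had 110 and 112 CPM. Ccnd1, a D-type cyclin of the G1 phase, had the highest level of the 15 leading genes by CPM, 1086 and 788, and was detected in 34 of 39 and 56 of 68 members. The others were Cd209a, Avpi1, Havcr2 (TIM-3), Tgm2, Nav1, Asb2, Adam23, Flt3, Slamf8, Batf3 and Tbc1d9, and the lowest ratio among the 15 was 20.2. Cd209a and Flt3 belong to the rule, and the ranking describes the chosen cells with no test. The other kept cells included 3466 B cells in Vehicle and 5150 in Glutoborin, but only 20 and 24 mature dendritic cells. Levels in other dendritic cells were not compared, so the ranking cannot tell genes of the members from genes of dendritic cells in general.

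The members were sorted into kinds by UMIs of the lectins and of the adhesion molecule Esam. A UMI of Clec4a4 or Esam, and none of Clec10a, Cd209a or Mgl2, was found in 6 Vehicle members (15.4%, 5.86 to 30.5%) and 18 Glutoborin members (26.5%, 16.5 to 38.6%). These are called Esam-type cells here. A UMI of Clec10a, Cd209a or Mgl2, and none of Clec4a4 or Esam, was found in 12 (30.8%, 17.0 to 47.6%) and 24 members (35.3%, 24.1 to 47.8%), called Clec10a-type cells. Both sets were found in 2 and 2 members, and neither in 19 and 24. These kinds are ranges of detected UMIs rather than cell types, since 17 of the 24 Esam-type cells and 9 of the 36 Clec10a-type cells were placed by a single UMI. The intervals of both kinds' shares overlap between the libraries.

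The lectins, Esam, Ffar2 and Kit were also counted pair by pair. Clec10a, Cd209a, Clec4a4 and Ffar2 belong to the rule, which required 2 of its 8 genes, so these counts depend on how the members were chosen and are a description only. Clec10a and Clec4a4 were detected together in 0 of 107 members, and singly in 20 and 16. Clec10a and Cd209a met in 12 members, and Cd209a and Esam in 4. Ffar2, a receptor for short-chain fatty acids, was detected in all 16 cells with Clec4a4 and all 15 with Esam, and in 6 of the 20 with Clec10a. Kit was found in 12 of the 15 cells with Esam and in 6 of the 20 with Clec10a.

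Esam-type cells had higher levels than Clec10a-type cells of 6 of the genes compared here, chosen after their values were seen. Dtx1, a Notch target, had 143 CPM in Esam-type cells of Vehicle and 285 CPM in those of Glutoborin, against 24.2 and 39.3 CPM in Clec10a-type cells. Id2, an inhibitor of E proteins that dendritic cells need, was at 1129 and 873 CPM against 202 and 295. Relb, an NF-kB subunit, was at 329 and 347 CPM against 32.3 and 153, and Runx3 at 229 and 378 against 129 and 130. Tbc1d4, a Rab GTPase-activating protein, was at 500.2 and 972 CPM against 64.6 and 169, and Ccnd1 at 1486 and 1157 against 622 and 463. For each of these 6 genes both libraries gave the higher level to the Esam-type cells. The 43 members with neither set, both libraries summed, had Dtx1 at 116 CPM, Id2 at 753, Relb at 305, Runx3 at 292, Tbc1d4 at 834 and Ccnd1 at 1115. Esam-type cells had 242, 950, 341, 333, 829 and 1257 CPM. Other Notch genes did not follow Dtx1. Notch2 had 71.5 and 68.1 CPM in Esam-type against 194 and 86.4 CPM in Clec10a-type cells, Rbpj had 57.2 and 124 against 105 and 66.8, and Hes1, with 6 and 16 UMIs in the kinds, had 28.6 and 24.8 against 0 and 62.8.

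Clec10a-type cells had higher levels than Esam-type cells of several monocyte-like genes and of some genes of type 1 dendritic cells. Ccr2, the receptor that brings monocytes to inflamed tissue, had 168 UMIs in 25 of the 36 Clec10a-type cells and 0 UMIs in the 24 Esam-type cells. Ly6c2 had 1018 CPM in Clec10a-type cells of Vehicle and 699 CPM in those of Glutoborin, against 85.7 and 12.4 CPM in Esam-type cells. Lyz2, lysozyme of myeloid cells, was at 444 and 3196 CPM against 71.4 and 30.9. Csf1r, the receptor for macrophage colony-stimulating factor, was at 113 and 208 CPM against 0 and 37.1, and Cx3cr1, the fractalkine receptor, at 88.8 and 192 against 28.6 and 6.19. The transcription factors Irf8 (589.5 and 228 against 71.5 and 30.9 CPM), Zeb2 (419.9 and 444 against 85.7 and 198) and Klf4 (258 and 54.97 against 0 and 55.7) were also higher in this kind, except Klf4 in the Glutoborin library. Of the type 1 genes, Clec9a had 15 UMIs in 10 of the 36 Clec10a-type cells and 0 UMIs in the 24 Esam-type cells, Naaa 58 against 3 UMIs, and Cd24a 22 UMIs in 5 cells against 2 UMIs in 2. Wdfy4, also a type 1 gene, and the transcription factor Batf3 were instead higher in Esam-type cells of both libraries. With both libraries summed, their log2 ratios, Clec10a-type over Esam-type, were -1.10 (-1.71 to -0.49) and -0.61 (-1.24 to 0.01). In the 43 members with neither set, both libraries summed, Irf8 had 345 CPM, Naaa 130, Cd24a 78.3 and Clec9a 18.9. Clec10a-type cells had 346, 153, 58.1 and 39.6 CPM. Irf8, Naaa and Cd24a thus set Clec10a-type cells apart from Esam-type cells but not from the members with neither set. Spi1 (PU.1), a factor of all myeloid cells, was at 589.5 and 554 CPM in Clec10a-type against 486 and 582 in Esam-type cells. Tbc1d4, Ccnd1, Kit and Mki67 were added to the genes of the lists after their values had been seen.

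**Figure D2:**
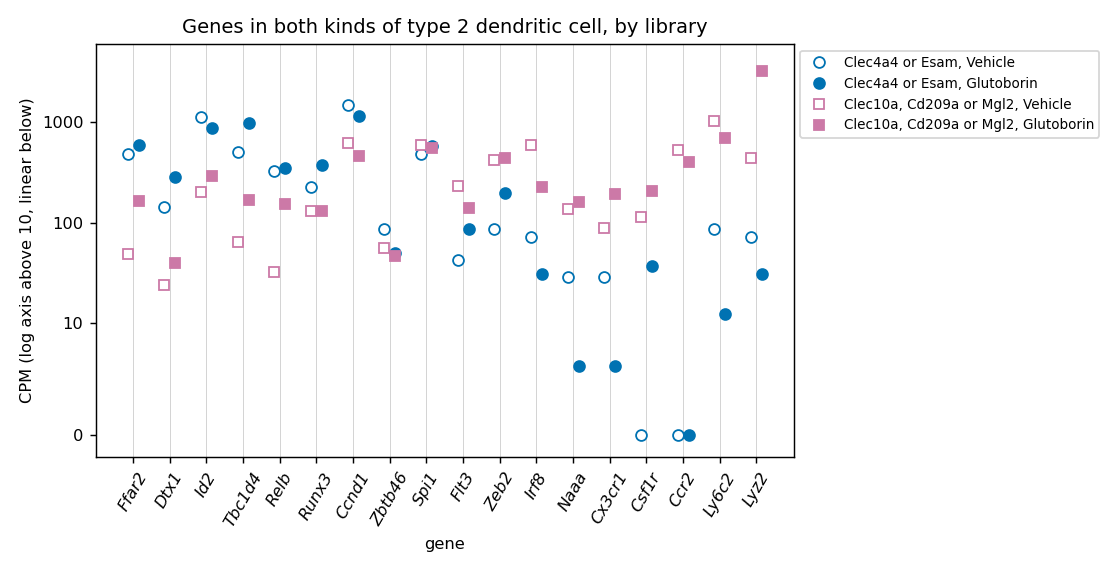
CPM (vertical axis, logarithmic above 10 and linear below) of 18 genes in Esam-type cells (blue circles, 6 Vehicle and 18 Glutoborin cells) and Clec10a-type cells (pink squares, 12 and 24 cells), with open symbols for Vehicle and filled ones for Glutoborin. Ffar2, Dtx1, Id2, Tbc1d4, Relb, Runx3 and Ccnd1 are higher in Esam-type cells in both libraries, Spi1 and Zbtb46 are close together, and Ccr2 is at 0 in both sets of Esam-type cells. Ffar2 helped to choose the members.

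Between the treatments, CPM was compared for the 3074 genes that reached 50 UMIs with both libraries summed. Of these, 289 (9.4%) were at least 1.5-fold lower in Glutoborin and 192 (6.25%) at least 1.5-fold higher, which is what "lower" and "higher" mean in the counts below. The median log2 ratio over all 3074 genes was -0.04. Each gene list is read against these background shares.

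Genes induced by type I interferon were lower in the Glutoborin cells. Of 54 measured genes of this list, 41 were lower and 0 higher, with a median log2 ratio of -0.92. Together the 54 genes had 21676 CPM in Vehicle and 13159 CPM in Glutoborin members, a log2 ratio of -0.72 (-0.76 to -0.68). Among 38 Vehicle members thinned to 3000 UMIs, the lowest, median and highest cell had 23, 67 and 150 UMIs of the list's 64 genes, and among 60 Glutoborin members 13, 37.5 and 128. The ranges overlap, but 53 of the 60 Glutoborin cells were under the Vehicle median, and 6 of the 38 Vehicle cells under the Glutoborin median. Without thinning, the same cells had medians of 65.7 and 34.4 UMIs per 3000. The cell-by-cell plot of this list below shows the shift over most cells of the group.

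Isg15, a ubiquitin-like protein that is conjugated to other proteins during antiviral responses, had 290 UMIs (739 CPM) in Vehicle and 128 UMIs (206 CPM) in Glutoborin members. It was detected in 34 of 39 and 41 of 68 cells, with a median of 6 and 1 UMIs a cell, and its log2 ratio was -1.85 (-2.16 to -1.54). The RNA-binding protein Ifit1 had 84 and 31 UMIs in 25 and 14 cells (-2.10, -2.75 to -1.49). Its neighbour Ifit3 had 102 and 47 UMIs in 31 and 25 cells (-1.78, -2.31 to -1.27), and some of its reads may belong to the near-identical Ifit3b. Irf7, the factor that amplifies the interferon response, had 298 and 217 UMIs in 37 and 53 cells (-1.12, -1.38 to -0.87). Oasl2, of the oligoadenylate synthetase family, had 165 and 100 UMIs (-1.39), and the nucleic acid sensor Zbp1 187 and 115 UMIs (-1.37). The exonuclease Isg20 had 63 and 28 UMIs (-1.84), and Rsad2 (viperin), which blocks viral replication, 53 and 34 (-1.31). Ifi205, of the interferon-inducible Ifi200 family but not in this list, had 124 and 51 UMIs (-1.95), of which 77.4% in Vehicle came from 5 cells.

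Not every gene of the list was lower. Ly6e, a restriction factor anchored in the membrane, had 1646 and 1692 CPM (0.04, -0.10 to 0.18), Ifitm2 had 596 and 631 CPM (0.08, -0.16 to 0.32), and Trim30d had 86.6 and 89.9 CPM (0.05, -0.59 to 0.71). Irf9, part of the factor that carries the interferon signal, had a log2 ratio of -0.19 (-0.74 to 0.38), and its partner Stat2 -0.92 (-1.43 to -0.42). Ifitm3, with 3891 CPM in Vehicle and 2762 in Glutoborin, had -0.49 (-0.59 to -0.39). Ifitm1, of the same family but not in this list, was higher, with 27 and 138 UMIs (1.69, 1.08 to 2.34), of which 71.0% in Glutoborin came from 5 cells. Of the receptor chains, Ifnar1 had 19 and 55 UMIs (0.87, 0.09 to 1.70) and Ifnar2 70 and 90 (-0.30, -0.77 to 0.17).

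The promoters of Isg15, Ifit1 and Ifit3 show the letters of an interferon-stimulated response element. The element was searched as the letters GAAA, any 2 bases and GAAA again, on both strands and with overlaps allowed. In the 250 bases before the start, 936 of 27025 genes (3.46%) in the RefSeq promoter table of GRCm38.p6 had the element. It was found in 17 of the 43 measured genes of the list that have an entry there (39.5%), which had a median log2 ratio of -1.03, against -0.84 for the 26 without it. In the list of genes induced by interferon gamma it was more frequent, in 11 of 19 (57.9%). Those 11 had a median of -0.46, against -0.35 for the 8 without it. A match describes letters only. Isg15, Ifit1 and Ifit3 are shown because their interval bounds nearest to no change were the lowest of the list, each 5' to 3' on the gene's strand, with the matches in capitals. Isg15 lies at chr4:156200860-156200911 on the minus strand, and its 3 overlapping matches begin 78 bases before the start. Ifit1 lies at chr19:34640770-34640828 and Ifit3 at chr19:34583358-34583431, both on the plus strand with 2 matches in the reverse orientation.
Isg15: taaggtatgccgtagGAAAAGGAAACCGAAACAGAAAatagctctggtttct
Ifit1: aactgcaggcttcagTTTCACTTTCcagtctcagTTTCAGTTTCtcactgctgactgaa
Ifit3: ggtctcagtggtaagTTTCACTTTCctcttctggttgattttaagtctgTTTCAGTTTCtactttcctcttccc
No match was found in this window for Irf7 or Oasl2, which were lower as well.

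**Figure D3:**
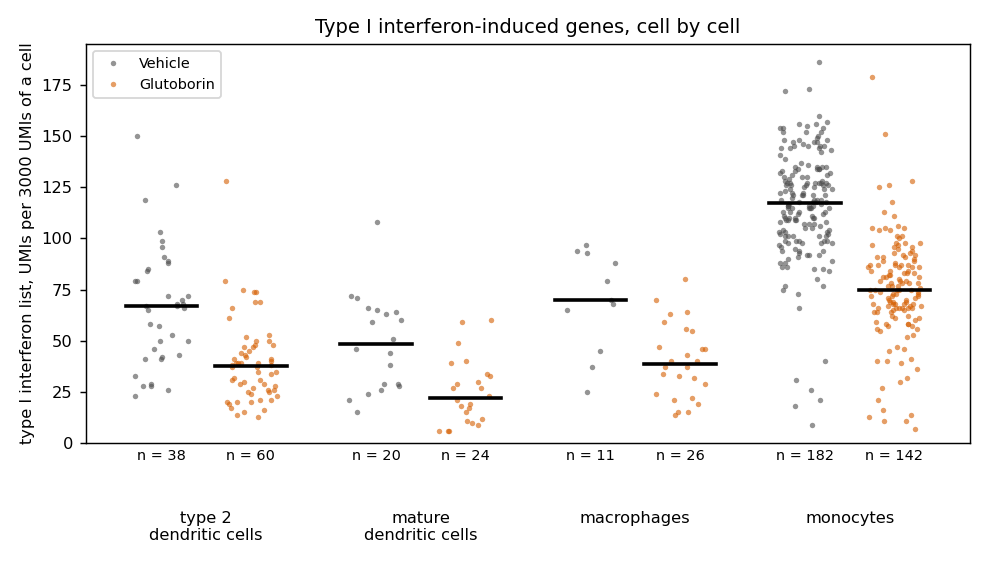
UMIs of the type I interferon list per cell thinned to 3000 UMIs (vertical axis) in type 2 dendritic cells, mature dendritic cells, macrophages and monocytes (1 point a cell, black bars at the median, grey for Vehicle and orange for Glutoborin). The median of the type 2 dendritic cells is 67 in Vehicle and 37.5 in Glutoborin, and each other cell type also has the lower median in Glutoborin.

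The interferon list was lower within each kind of member. Per thinned cell, the medians were 41.5 UMIs in Vehicle and 25.5 in Glutoborin Esam-type cells (6 and 16 cells), 84 and 45 in Clec10a-type cells (12 and 23 cells), and 57.5 and 31 in cells with neither set (18 and 19 cells). The medians of the genes' log2 ratios were -0.98 over 11 genes in Esam-type cells, -0.91 over 35 genes in Clec10a-type cells and -0.97 over 28 genes in cells with neither. Clec10a-type cells carried more of the list than Esam-type cells in both libraries.

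Other cell types were lower for this list as well. Over the same 54 genes, the summed list had a log2 ratio of -0.84 (-0.92 to -0.75) in mature dendritic cells, which differ from members in having Fscn1 or Ccr7, -0.55 (-0.63 to -0.47) in macrophages, -0.59 (-0.61 to -0.58) in monocytes and -0.87 (-0.88 to -0.86) in B cells. The members' -0.72 lies among these. Free RNA is part of each of these sums, and markers of other cells were also unequal between the libraries' members. Of the B cell list, Igkc had 461 CPM in Vehicle and 185 CPM in Glutoborin members. Cd79b (48.4 and 45.0 CPM) and Ms4a1 (43.3 and 9.63 CPM) were under 50 UMIs and are not among the measured genes. The 3 measured B cell genes together had 869 and 594 CPM. Their log2 ratios ran from -1.32 to 0.58, with 1 interval below 0 and 1 above 0. The 2 measured plasmacytoid genes, Bst2 and Tcf4, had 607 and 278 CPM together, with the defining Cox6a2 at 0, and Bst2 is also in the interferon list. The part of these markers in the interferon result was not tested. Among cells with no Cd79a UMI, 24 in Vehicle and 50 in Glutoborin, the list's median was -0.81 with 32 of 46 genes lower and 0 higher.

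Genes induced by interferon gamma, made by T and NK cells, were lower in part. Of 23 measured, 10 were lower and 0 higher, with a median of -0.49, and the sum was 4646 and 3345 CPM (-0.47, -0.57 to -0.38). Iigp1, a GTPase that attacks vacuoles of intracellular pathogens, had 94 and 57 UMIs (-1.39, -1.89 to -0.90), and the guanylate-binding protein Gbp2 114 and 86 (-1.07). Cxcl9, a chemokine for activated T cells, had 139 UMIs in 11 Vehicle cells and 124 UMIs in 13 Glutoborin cells (-0.83, -1.19 to -0.47). Its relative Cxcl10 had 84 and 144 UMIs (0.11, -0.29 to 0.52), and the regulator Irf1 83 and 124 (-0.09). Ifngr1, a chain of the receptor, was higher, with 67 UMIs in Vehicle and 213 in Glutoborin (1.00, 0.60 to 1.42), while Ifngr2 had 34 and 56 (0.05). Per thinned cell the list's medians were 11 and 9 UMIs, with ranges of 2 to 57 and 2 to 53, so the cells of both libraries overlapped over nearly their whole range. The list's direction depended on the cells counted: the median was -0.17 without the 5 cells richest in the list in each library, and 0.37 in Clec10a-type cells alone, with 3 of 11 genes lower and 4 higher. The summed list had a log2 ratio of -0.98 in mature dendritic cells, -0.42 in monocytes, -0.95 in B cells and -0.13 (-0.26 to 0.005) in macrophages.

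Class II presentation genes were at nearly the same level. Of 15 measured genes beyond H2-Aa and H2-Ab1, 1 was lower and 1 higher, with a median of 0.12, and the sum was 29421 CPM in Vehicle and 32417 in Glutoborin (0.14, 0.11 to 0.17). Cd74, the invariant chain, had 6850 and 11745 UMIs (0.11, 0.07 to 0.15), and H2-DMa, which loads peptides, 213 and 466 (0.46, 0.23 to 0.70). Cd83, which keeps class II at the surface of activated cells, was the lower gene, with 51 and 40 UMIs (-1.02, -1.65 to -0.39), and the protease Ctsd the higher one (20 and 49 UMIs, 0.63, -0.15 to 1.46). Ciita, the master regulator, had 241 and 351 UMIs (-0.12, -0.36 to 0.12).

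Class I presentation genes were slightly lower, 4 of 21 by 1.5-fold and 0 higher, with a median of -0.31. The lower genes were the immunoproteasome subunit Psmb10 (172 and 148 UMIs, -0.88), the peptide-loading proteins Tapbp (-0.65) and Tapbpl (-0.87), and H2-T22 (-0.59). B2m, the shared light chain, had 1119 and 1732 UMIs (-0.04, -0.15 to 0.07) and the heavy chain H2-K1 970 and 1376 (-0.16, -0.28 to -0.04). Many of these genes respond to interferons as well.

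Heat shock genes were lower in Glutoborin, 6 of 10 by 1.5-fold and 0 higher, with a median of -0.77 and a sum of 7306 and 4294 CPM (-0.77, -0.84 to -0.69). The inducible Hsp70 genes Hspa1a and Hspa1b had the lowest ratios: Hspa1b had 66 UMIs in 12 Vehicle members and 1 UMI in 1 Glutoborin member (log2 ratio -6.71, -12.04 to -4.18), and Hspa1a had 51 UMIs in 12 and 9 UMIs in 3 (-3.17, -4.38 to -2.13). These are near-identical copies, so the split of reads between them is uncertain. In all, 16 Vehicle and 4 Glutoborin members had a UMI of either. Their constitutive relative Hspa8 had 1053 and 871 UMIs (-0.94, -1.07 to -0.81), the co-chaperone Dnaja1 141 and 105 (-1.09), and Hsp90ab1 769 and 807 (-0.60, -0.74 to -0.45). Per thinned cell the medians were 21.5 UMIs in Vehicle, with a range of 2 to 49, and 12 in Glutoborin, with a range of 3 to 25. Without cells with a Ly6c2 UMI, 15 in Vehicle and 53 in Glutoborin, 1 of 7 measured genes was lower, with a median of -0.39. The same 10 genes had a log2 ratio of -0.74 in mature dendritic cells, -0.75 in macrophages, -0.74 in monocytes and -0.42 in B cells.

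**Figure D4:**
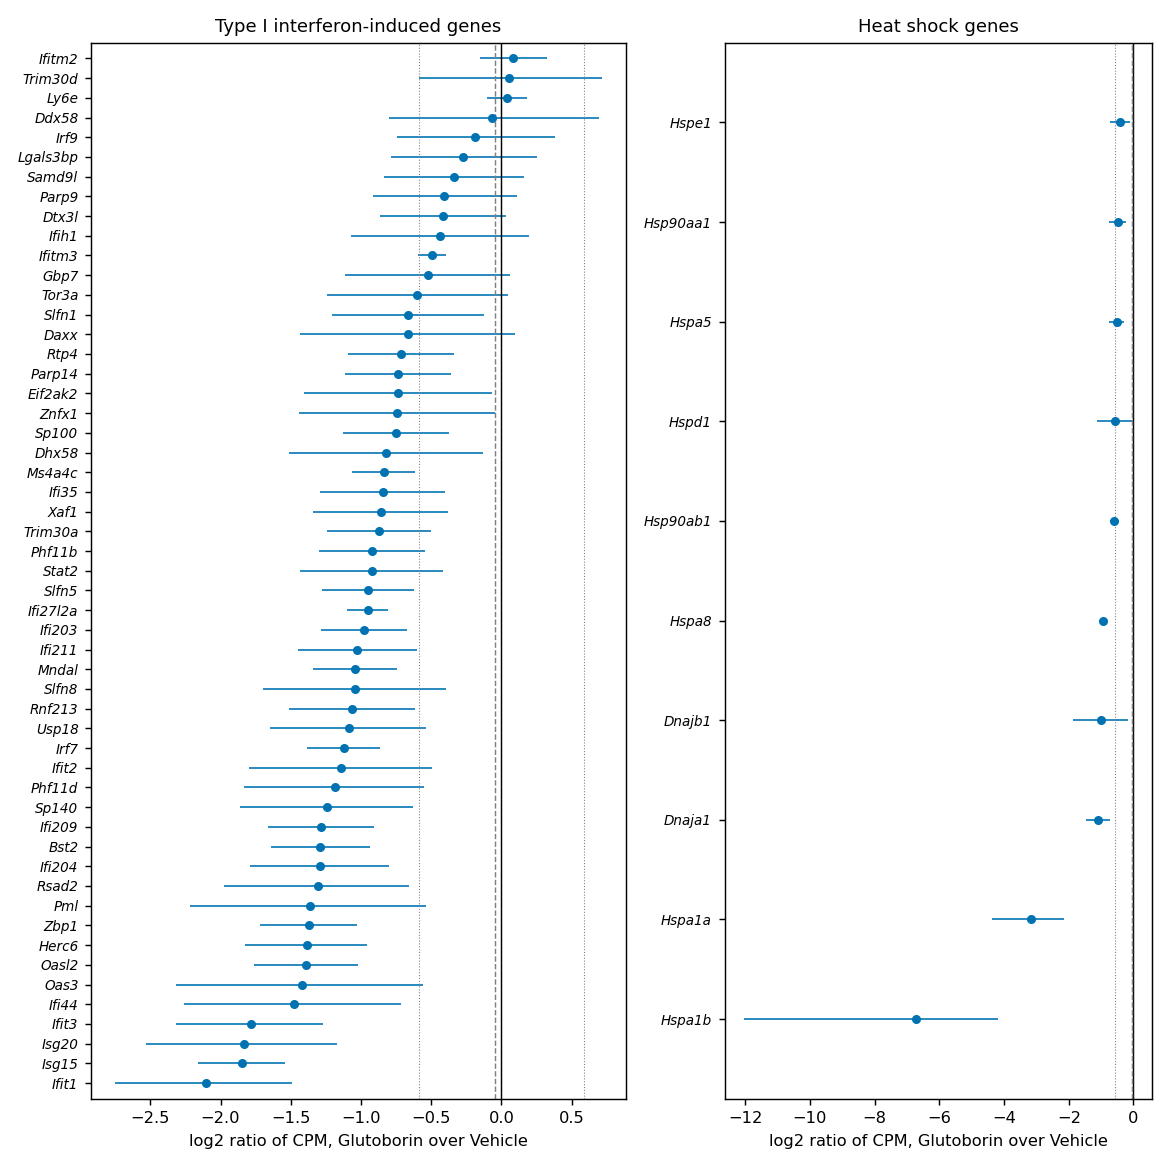
Log2 ratio of CPM, Glutoborin over Vehicle (horizontal axis), with exact 95% counting intervals, of 53 of the 54 measured type I interferon-induced genes (left) and the 10 measured heat shock genes (right) in the type 2 dendritic cells. The solid line marks 0, the dashed line the median of all 3074 genes and the dotted lines 1.5-fold. Of the interferon genes, 41 of 54 lie left of the lower 1.5-fold line, and Hspa1b and Hspa1a stand apart from the other heat shock genes, on a wider axis.

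Immediate early genes, which respond to stimulation and to tissue handling, were divided. Of 18 measured, 2 were higher and 2 lower, with a median of 0.02. Egr1 had 46 UMIs in 11 Vehicle members and 180 UMIs in 32 Glutoborin members (1.30, 0.83 to 1.80), and Nr4a1, a nuclear receptor, 52 and 142 UMIs (0.78, 0.32 to 1.27). Jund (-0.94, -1.29 to -0.60) and Fosb (-0.77, -1.26 to -0.28) were the lower genes. Fos (0.11, -0.20 to 0.44) and Junb (0.00, -0.21 to 0.21) were near no change. Ddit4, a stress-induced inhibitor of mTOR signalling outside this list, had 53 and 24 UMIs in 17 and 19 cells (-1.81, -2.57 to -1.09).

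Complement C1q genes, which macrophages make, were checked in each member. In Vehicle, 37 members had 0 summed UMIs of C1qa, C1qb and C1qc, 2 had 1 to 2, and 0 of 39 had 3 or more, which allows a share of up to 7.69% with 3 counts as the limit (exact interval 0 to 9.03%). In Glutoborin, 56 had 0, 3 had 1 to 2, and 9 of 68 (13.2%, 6.23 to 23.6%) had 3 or more. At least 1 C1q UMI was found in 1.24% of Vehicle and 1.22% of Glutoborin B cells. C1qa had 1 UMI in Vehicle and 124 in Glutoborin members, a log2 ratio of 6.29 with an interval of 3.78 to 11.60, and C1qb had 1 and 123. C1qc had 0 and 50 UMIs, so its Glutoborin level was 10.5-fold above a Vehicle floor of 3 counts per library. The exact interval of its log2 ratio begins at 3.04. Of the C1qa UMIs in Glutoborin, 90.3% came from 5 cells, and 1 cell held 182 of the 297 C1q UMIs.

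These 9 cells carried other macrophage genes. Their macrophage markers without C1q summed to 2068 CPM, against 259 CPM in the 56 Glutoborin members with no C1q UMI, 189 CPM in the 37 such Vehicle members, and 16089 and 17839 CPM in the cells taken as macrophages in Vehicle and Glutoborin. Vcam1, an adhesion molecule of red pulp macrophages, was detected in 6 of the 9 and in 0 of the 39 Vehicle members. Dendritic cell genes were present too: Flt3 in 5 of the 9 and Zbtb46 in 3. The cell with 182 C1q UMIs had 15224 UMIs in all, 438 of H2-Aa and H2-Ab1, 43 of Lyz2, 8 of Cx3cr1, 3 of Clec10a, 3 of Itgax and 0 of Flt3. The cell with 32 C1q UMIs had 14577 UMIs, with 7 of Cd209a, 6 of Flt3, 8 of Csf1r, 5 of Vcam1 and 3 of Spic. The part of macrophage RNA in these cells was not tested. Of the 9 cells, 4 were Clec10a-type and 5 had neither set of genes that define the kinds.

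Without the 9 cells most macrophage genes had too few UMIs to compare. Of 6 measured macrophage genes 5 were higher with all members counted, with a median of 4.06, or 2.61 with C1qc taken against the floor of 3 counts. Without the 9 cells only Apoe reached 50 UMIs, with a log2 ratio of -0.15, and C1qa, with few UMIs left, had -0.48 (-6.78 to 5.81). Over 2905 genes then measured, 263 (9.05%) were lower and 183 (6.3%) higher, and the type I interferon list had 41 of 53 genes lower and 0 higher, with a median of -0.97. Adgre1 (F4/80) had 9 UMIs in 7 Vehicle and 51 UMIs in 30 Glutoborin members, a log2 ratio of 1.84 (0.80 to 3.04). Without the 9 cells it was just under the minimum of 50 UMIs and had 1.63 (0.56 to 2.86).

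Genes shared with monocytes were divided, 4 of 11 measured higher and 2 lower, and the list's median (-0.34) and summed ratio (0.03) differ in sign. Lyz2 had 71 UMIs in 23 Vehicle members and 940 UMIs in 33 Glutoborin members (181 and 1509 CPM, log2 ratio 3.06, 2.71 to 3.43). Of the Glutoborin UMIs, 78.5% came from 5 cells and the highest cell had 253. There were 2 Vehicle and 10 Glutoborin members with 10 or more Lyz2 UMIs, of which 2 and 8 were Clec10a-type and 2 and 9 had Ly6c2. Without them the log2 ratio of Lyz2 was 0.26. B cells had Lyz2 in 42.6% of Vehicle and 16.5% of Glutoborin cells, although B cells should lack it.

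Csf1r was spread over many cells. It had 16 UMIs in 5 of 39 Vehicle members (12.8%, 4.297 to 27.4%) and 88 UMIs in 37 of 68 Glutoborin members (54.4%, 41.9 to 66.5%), a log2 ratio of 1.79 (1.01 to 2.66), and of 1.56 without the 9 C1q cells. Of its Glutoborin UMIs 38.6% came from 5 cells, and 10 of the 16 Vehicle UMIs from 1 cell. B cells had Csf1r in 2.91% and 1.53% of cells, the opposite order. In thinned cells the shares of members were 7.89% and 23.3%. Over monocytes Csf1r had 535 and 481 CPM, but these cells were chosen by having a Csf1r UMI, so their level is a description only.

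Ly6c2, an interferon-responsive surface protein of monocytes, stood the other way. It had a UMI in 24 Vehicle and 15 Glutoborin members, with 181 and 193 UMIs (-0.57, -0.87 to -0.27). Its shares in B cells were 44.5% and 22.8%, and the Glutoborin members' share of 22.1% was close to the latter. Members were deeper than B cells, with medians of 10124 and 9532 UMIs against 4792.5 and 4137.5. How much of the members' share is background was therefore not tested in either library. In Glutoborin 9 of the 10 Lyz2-rich cells had up to 59 UMIs. Reads of Ly6c2 and its near copy Ly6c1 may be shared. Leaving out each cell with a Ly6c2 UMI left 15 Vehicle and 53 Glutoborin members, a log2 ratio of shares of 1.35 (0.50 to 2.29), and an interferon median of -1.18 with 24 of 32 genes lower and 0 higher. Because Ly6c2 responds to interferon and its share also differs in B cells, these values are no independent check.

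**Figure D5:**
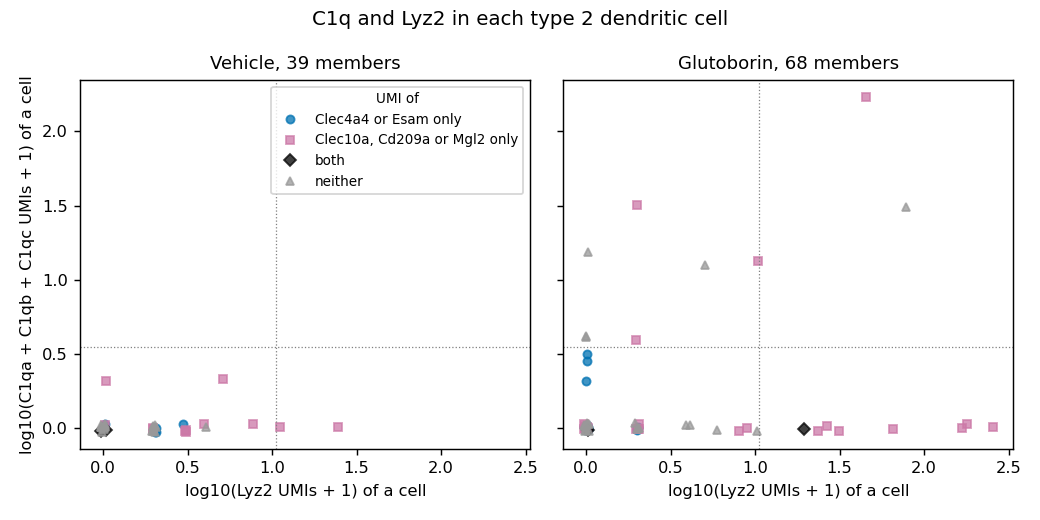
Summed C1q UMIs (vertical axis) against Lyz2 UMIs (horizontal axis), both as log10 of UMIs + 1, in each of the 39 Vehicle and 68 Glutoborin members, with symbols for the kinds of member and small random offsets. Points above the horizontal dotted line have 3 or more C1q UMIs (0 and 9 cells), and points right of the vertical one have 10 or more Lyz2 UMIs (2 and 10 cells, mostly Clec10a-type).

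As a list, Clec10a-type genes had 7 of 13 measured genes higher and 1 lower in Glutoborin, with a median of 0.63. The higher genes were Lyz2, Csf1r, Clec12a (13 and 52 UMIs, 1.33, 0.44 to 2.34), Cx3cr1 (19 and 58, 0.94, 0.17 to 1.77), Clec4a2 (0.68), Tmem176b (0.64) and Tmem176a (0.63). The count was 4 of 13 without the C1q cells, with a median of 0.20, and 2 of 11 with 3 lower and a median of -0.37 without the 12 cells rich in Lyz2. Esam-type genes had 0 of 10 higher and 1 lower, with a median of 0.08. Gpr183, the oxysterol receptor that guides these cells to the bridging channels, was the lower one (44 and 39 UMIs, -0.84, -1.50 to -0.19), and Ltb, lymphotoxin beta, had 120 and 259 UMIs (0.44, 0.13 to 0.77).

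Transcription factors of dendritic cells showed 4 lower and 0 higher of 18, with a median of -0.19. Klf4 had 44 and 35 UMIs (-0.996, -1.68 to -0.32), Irf8, which the type 1 kind needs, 153 and 123 (-0.98, -1.34 to -0.63), Tcf4, the plasmacytoid factor, 64 and 60 (-0.76), and the repressor Bcl6 30 and 29 (-0.72, -1.50 to 0.07). The defining factor Zbtb46 had 37 and 33 UMIs, but helped to choose the cells. Spi1 (-0.21), Id2 (-0.13), Batf3 (-0.22), Relb (0.05) and Runx3 (-0.17) had intervals that include 0. Zeb2 had 85 and 187 UMIs (0.47, 0.09 to 0.86). Irf4, the factor most tied to type 2 cells, had 11 UMIs in 5 Vehicle and 18 UMIs in 14 Glutoborin members, too few to compare, and 15 to 19% of B cells carried it as well.

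Growth factor and cytokine receptors had 3 of 13 genes higher, Csf1r, Ifngr1 and Ifnar1, and 1 lower, Il10ra (73 and 73 UMIs, -0.67, -1.15 to -0.18). Kit had 36 and 69 UMIs (0.27, -0.33 to 0.90) and the GM-CSF receptor chain Csf2ra 67 and 128 (0.27, -0.17 to 0.72). Ligands for T cells had 2 of 11 lower and 0 higher. Cd24a had 39 UMIs in 6 Vehicle cells and 14 in 5 Glutoborin cells (-2.14, -3.14 to -1.23), with 97.4% of the Vehicle UMIs in 5 cells, and B cells carry it at 253 and 323 CPM. Lgals9, a TIM-3 ligand, had 28 and 22 UMIs (-1.01). Cd86 (60 and 72 UMIs, -0.40, -0.92 to 0.12), Cd40 (36 and 46, -0.31) and Cd274, which encodes PD-L1 (48 and 66, -0.21), had intervals that include 0.

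Cytokines and chemokines were split, 4 of 10 higher and 2 lower, with a median of 0.34. Il1b had 22 UMIs in 13 Vehicle and 87 UMIs in 22 Glutoborin members (1.32, 0.63 to 2.06), and Cxcl16, the ligand of Cxcr6, 12 and 46 UMIs in 6 and 14 (1.27, 0.33 to 2.32). Ccl5 had 81 and 213 UMIs (0.73, 0.35 to 1.12) and Ccl9 24 and 67 (0.81). The lower genes were Cxcl9 and Ccl3, a neutrophil and T cell attractant with 48 UMIs in 3 Vehicle members, 34 of them in 1 cell, and 14 UMIs in 6 Glutoborin members (-2.44). Il12b, a subunit of interleukin 12, was at 0 in all 107 members.

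Receptors that sense microbes had 2 of 13 genes higher and 3 lower. Tmem173 (STING) had 60 and 58 UMIs (-0.72, -1.26 to -0.17), the inflammatory caspase Casp1 51 and 51 (-0.67) and Nod1 34 and 32 (-0.75), and the higher ones were the lectins Clec12a and Clec4a2. Receptors for migration had 3 of 14 higher, Cx3cr1, Sirpa (42 and 110 UMIs, 0.72, 0.20 to 1.27) and Itgam (18 and 43, 0.59, -0.23 to 1.47), and 2 lower, among them Gpr183. Of 7 Fc and scavenger receptors, Fcgr1 (37 and 29 UMIs, -1.02) and Fcgr4 (30 and 30, -0.67) were lower and the inhibitory Fcgr2b (14 and 38, 0.77, -0.14 to 1.77) higher.

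Cell cycle genes had 4 of 14 higher and 2 lower, with a median of 0.26. In cells with no Cd79a UMI, 1 of 11 was higher and 3 lower, with a median of -0.36. Mki67, a protein of dividing cells, had 10 UMIs in 2 Vehicle members and 60 UMIs in 7 Glutoborin members (1.92, 0.94 to 3.05), and 43 of the 60 came from 1 cell. Only 1 Vehicle and 3 Glutoborin members had 3 or more Mki67 UMIs, and 1 and 2 of them were Esam-type. No Clec10a-type cell had a Mki67 UMI. Top2a (29 and 78 UMIs, 0.76), Stmn1 (39 and 111, 0.84) and Hmgb2 (131 and 359, 0.79) were higher too, and the 3 Glutoborin cells with 3 or more Mki67 UMIs held 59 of the 78 Top2a and 80 of the 111 Stmn1 UMIs. The replication factor Mcm2, which loads before S phase, was lower (43 and 27 UMIs, -1.34, -2.09 to -0.61), as was Mcm4 (-0.72).

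Iron and redox genes had 0 of 8 past 1.5-fold, with a median of 0.27. The ferritin chains Fth1 (932 and 2045 UMIs, 0.47, 0.35 to 0.58) and Ftl1 (700 and 1355, 0.29, 0.15 to 0.42), which store iron, were both above 0, and the transferrin receptor Tfrc had 15 and 35 UMIs (0.56, -0.35 to 1.53). Of 6 cholesterol and lipid genes, Hmgcs1 was higher (16 and 39 UMIs, 0.62, -0.25 to 1.56) and 0 lower.

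Among genes outside these lists, H2-M2 and Ifitm1 were higher in few cells. H2-M2, a non-classical class I gene, had 0 UMIs in Vehicle and 58 UMIs in 5 Glutoborin members, and the highest cell had 23. Its Glutoborin level was 12.2-fold above a Vehicle floor of 3 counts per library, and the exact interval of its log2 ratio begins at 3.26. None of these 5 cells had 3 C1q UMIs. Mature dendritic cells had H2-M2 at 95.9 and 84.7 CPM. Ifitm1 had 27 UMIs in 7 Vehicle and 138 UMIs in 22 Glutoborin members (1.69, 1.08 to 2.34), with 71.0% of the latter in 5 cells. Csgalnact2, an enzyme of chondroitin sulfate synthesis, was more evenly spread, with 8 UMIs in 8 Vehicle cells and 46 UMIs in 34 Glutoborin cells (1.86, 0.76 to 3.15), and Cyp4f18, a cytochrome P450, had 7 UMIs in 6 and 43 UMIs in 17 (1.95, 0.79 to 3.35).

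Lists of other cell types were short of measured genes. T cell, neutrophil and red cell markers had 0 genes with 50 UMIs. Type 1 dendritic cell markers had 2 of 6 lower, Cd24a and Irf8, and 0 higher, with a median of -0.28. Markers of mature dendritic cells had 2 of 5 higher and 0 lower, with a median of 0.05. NK cell markers had 1 of 3 higher and 0 lower, with a median of 0.17, and the 1 measured plasma cell gene had a log2 ratio of 0.07. Of the genes that mark type 2 cells but were not in the rule, Dpp4 had a log2 ratio of -0.24, Itgam 0.59 and Sirpa 0.72.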

How the data were processed

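The authors deposited raw UMI counts per gene and barcode for both libraries, with no normalization; the matrices come from Cell Ranger 6.1.2 per the file headers, and Cell Ranger 6.0.1, Seurat 4.3.0 and mm10 come from the notes on processing that the submitters gave (the submitters' processing notes). No source used here gives the annotation release. From these counts, members were found by the rule above, the members' UMIs of each gene were added up in each library and scaled by the members' total to give CPM, and log2 ratios carry the exact 95% interval of a ratio of Poisson counts; shares carry exact binomial (Clopper-Pearson) intervals. Genes needed 50 UMIs over both libraries. Only the values named as thinned come from cells thinned to 3000 UMIs, which left out 1 Vehicle and 8 Glutoborin members. All other shares of cells with a UMI, in members and in B cells, are from unthinned cells and are not matched for depth. With 1 library a group no p-value is given. Named genes were the 12 on each side with at least 50 CPM whose interval bound was farthest from no change, leaving out genes of the rule, antigen receptor, mitochondrial, haemoglobin and sex-linked genes; genes of the 31 lists are named with their values. The members and lists were chosen with earlier results of these data known. List symbols with no match in the files, such as Mx1 and Mx2, were not analysed here, and 3 genes that count in the lists are not reported by name. Mature dendritic cells met the members' rule except for Fscn1 or Ccr7, macrophages had 10 or more C1q UMIs, monocytes Csf1r with Ly6c2 or Ccr2 and under 20 class II UMIs, and B cells 3 or more Cd79a UMIs; macrophages shared 6 Vehicle and 7 Glutoborin cells with monocytes and 2 Vehicle cells with mature dendritic cells. The interval code was tested on simulated data. Alternatives were other member thresholds, gene filters, thinning and leaving out groups of cells. Python 3.11.15, numpy 2.4.6, scipy 1.17.1 and scanpy 1.11.5 were used.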

Additional observations from a re-analysis of the deposited data

How the results depend on the processing

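With 1 library a group, no replicate could be left out. No paired analysis was possible because each group is 1 library with no replicate number, and no test was run. The type I interferon list had no gene 1.5-fold higher under any alternative, and its median ranged from -1.18 to -0.81: -0.81 in cells with no Cd79a UMI, -0.84 without Scrublet doublets, -0.97 without C1q cells and after thinning, -0.99 without cells of 10 or more Lyz2 UMIs, -1.03 for the mean of each cell's CPM and for cells with a UMI of Clec10a, Cd209a, Clec4a4, Mgl2 or Esam, and -1.18 without cells with a Ly6c2 UMI. In Esam-type cells it was -0.98 and in cells with neither set -0.97. The heat shock median was -0.54 with 3 or more of the 8 genes, -0.63 in cells with no Cd79a UMI, -0.61 without C1q cells, -0.39 without Ly6c2 cells, -0.94 for genes with 20 UMIs, -0.56 for genes with 200 UMIs, -0.65 after thinning, -0.58 without the 5 cells richest in the list, -0.52 in cells with a UMI of the 5 genes and -0.62 without Lyz2-rich cells. It was -0.54 in Esam-type, -0.56 in Clec10a-type and -0.54 in other members. The interferon gamma median was -0.36 in cells with no Cd79a UMI, -0.21 after thinning, -0.17 without the 5 richest cells, -0.071 in cells with a UMI of the 5 genes and 0.37 in Clec10a-type cells alone. The cause of these moves was not tested.

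Members with 3 or more of the 8 genes made up 0.530% of Glutoborin cells. Members with no Cd79a UMI made up 0.359% of Vehicle and 0.540% of Glutoborin cells, and members with a UMI of the 5 genes 0.299% and 0.476%. Without Ly6c2 cells the Vehicle share was 0.224% and the log2 ratio of shares 1.35. The count of lower genes was 172 of 1682 measured without Ly6c2 cells and 187 of 1975 in cells with a UMI of the 5 genes. With all members it was 289 of 3074, so the smaller counts go with fewer measured genes. With 20 UMIs per gene 696 of 5716 genes were lower and 656 higher. With 200 UMIs 47 and 15 of 678 were, and after thinning 89 and 49 of 821. The Esam-type list's median was -0.0061 with 3 or more of the 8 genes, -0.22 without Ly6c2 cells and -0.0052 for the mean of each cell's CPM. The cell cycle median was -0.36 with no Cd79a UMI, the class II median -0.10 without Ly6c2 cells and the monocyte median 0.035 without the 5 richest cells. The Clec10a-type median was -0.0025 in cells with a UMI of the 5 genes and -0.37 without Lyz2-rich cells. Of 209 values of 22 named genes that kept 50 UMIs and a finite ratio, 191 lay within the main interval and 0 changed direction. C1qa, which fell under 50 UMIs, had -0.48 without C1q cells. The alternatives on the 5 genes, Lyz2 and the kinds of member were added after seeing the data.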
